A study of Mus musculus with 17 samples.

Results

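Antioxidant and NRF2 target genes were followed in libraries of mouse retinal pigment epithelium (RPE), the pigmented cell layer behind the photoreceptors. The group held 10 genes, Hmox1, Nqo1, Gclc, Gclm, Txnrd1, Srxn1, Prdx1, Sod1, Sod2 and Cat, taken by symbol from a table of 22253 genes. The rule used no measured value, but the genes were chosen with earlier results of these data known. All 10 symbols were found.

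The study asked how peripheral RPE cells that use Serpine3, a gene for a serine protease inhibitor, differ from their neighbours. All mice were Serpine3GFP/+ on a C57BL6/J background and 2 months old. They carried GFP inserted behind the start codon in exon 2 of 1 copy of Serpine3, so that GFP marked cells using the gene, and every group, the GFP- cells included, shared this allele. After hyaluronidase the eyecups were split into periphery and center, the RPE sheets were digested with trypsin, and cells were picked by hand into pools for SMART-Seq, of 10 to 15 cells by the labels and of a lower, overlapping range by the study's methods. Peripheral GFP+ cells gave 6 libraries, peripheral GFP- cells (ctrl periphery) 5 and central GFP- cells (ctrl center) 6. They came from mice numbered 1 to 7, with mouse 1 carrying 2 animal numbers in the labels. Mice 1, 2, 4, 5 and 7 gave all 3 groups, mouse 3 only GFP+ cells and mouse 6 only central cells.

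NRF2, encoded by Nfe2l2, is a transcription factor that KEAP1 holds in the cytoplasm and sends for degradation. Oxidants and electrophiles loosen this hold, after which NRF2 pairs with small MAF proteins on antioxidant response elements and switches on enzymes of glutathione synthesis, thioredoxin recycling, quinone reduction and heme breakdown, while BACH1 competes for the same elements. RPE cells meet light, oxygen and oxidized outer segment lipids every day, and superoxide dismutases, catalase and peroxiredoxins are among their known defenses.

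Total counts per library ran from 9896118 to 22467079. Transcripts of the 13 mitochondrial protein genes took 0.71% to 17.2% of the counts in GFP+ libraries, 12.5% to 30.4% in peripheral GFP- and 13.7% to 47.3% in central GFP- libraries. Genes with at least 10 counts numbered 9089 to 10231, 7966 to 10543 and 5392 to 10450 in these groups. Serpine3 had 107 to 576 counts in GFP+ libraries, 0 to 5 in peripheral GFP- and 0 in all central GFP- libraries. Of 12 RPE markers, 10 lay above 3 counts in all 17 libraries, but Best1 lay at or under 3 counts in every library and Trpm1 was above in 10. Of 8 macrophage and microglia markers, 5 never passed 3 counts, whereas Csf1r read 35.6 to 110.5 CPM in GFP+, 96.7 to 146 in peripheral GFP- and 68.4 to 115 in central GFP- libraries, where CPM stands for counts relative to library depth, with TMM factors over the 17 libraries. Cd68 passed 3 counts in 6 libraries and Ptprc in 2. Of 4 markers listed for melanocytes other than RPE, Sox10 passed 3 counts in 17 libraries, Mlana in 12, Kit in 11 and Ednrb in 5. Mlana reached 118 CPM in GFP+, 15.3 in peripheral GFP- and 29.2 in central GFP- libraries. Of 8 rod and cone markers, Gnat1 passed 3 counts in 17 libraries and 2 never did. Differences in mitochondrial share and detected genes lay along the same groups as the antioxidant comparisons, and their part in those results was not tested. In such pools, fewer cells with a transcript and less of it per cell cannot be told apart.

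Per kilobase of transcript, the 10 genes spanned a wide range of levels. Prdx1, a cytosolic peroxiredoxin that reduces hydrogen peroxide with thioredoxin, stood at 779 CPM per kilobase over all libraries, above 99.5% of the 18940 genes with a level above 0. Sod1, the copper-zinc superoxide dismutase of the cytosol, followed at 315, Cat, the peroxisomal catalase that splits hydrogen peroxide, at 296, and Nqo1, a quinone reductase, at 133 CPM per kilobase. Sod2, the manganese superoxide dismutase of mitochondria, was at 31.2 and Gclm, the modifier subunit of the glutamate-cysteine ligase that starts glutathione synthesis, at 27.7 CPM per kilobase. Low levels belonged to Txnrd1, the cytosolic thioredoxin reductase, at 8.48, Hmox1, the inducible heme oxygenase, at 7.59, Gclc, the catalytic subunit of the ligase, at 6.53, and Srxn1, the sulfiredoxin that repairs overoxidized peroxiredoxins, at 3.63 CPM per kilobase. Of these genes, 6 of 10 were above 3 counts in every library: Nqo1, Gclm, Prdx1, Sod1, Sod2 and Cat. The coefficient of variation over the 17 libraries was lowest for Cat at 21.5% and highest for Srxn1 at 162%.

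**Figure D1:**
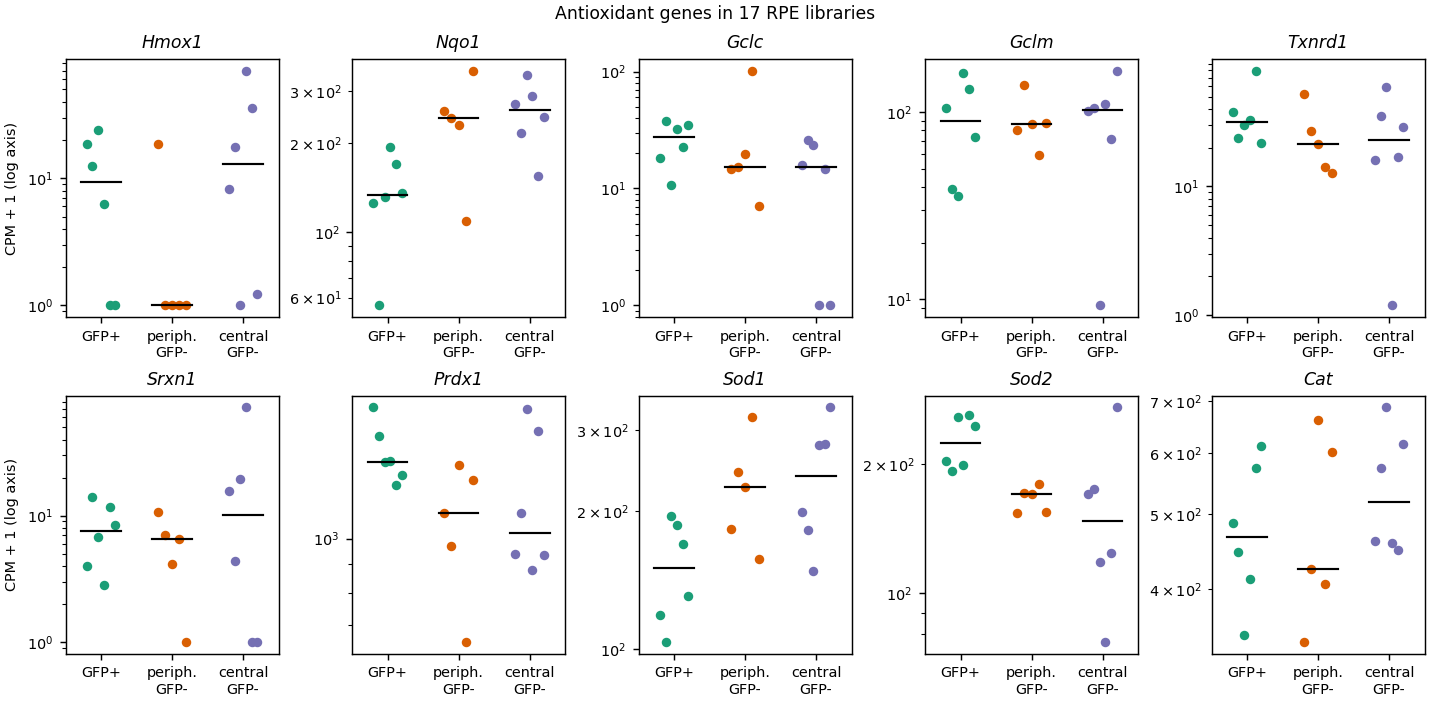
CPM + 1 on a log axis for the 10 antioxidant genes in each of 17 libraries, with points for single libraries and black lines for group medians. Sod2 lies between 192 and 259 CPM in GFP+ cells and between 153 and 179 in peripheral GFP- cells, while Hmox1 is at 0 in 4 of 5 peripheral GFP- libraries.

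None of the 10 genes passed the test in any of the 3 comparisons. The test was edgeR's quasi-likelihood test over all genes, with a call at an adjusted p under 0.01 and a log2 fold change over 1 in size, and all 10 passed its filter on low counts in each comparison. It called 0.0431% of genes between GFP+ and central cells, 0.0396% between GFP+ and peripheral GFP- cells and 0.0% between peripheral and central GFP- cells. DESeq2 also called 0 of 10 in each comparison, against 1.54%, 0.558% and 0.259% of all genes, and limma voom called 0 of 10 in each, against 0.129%, 0.0198% and 0.0% of all genes. At an unadjusted p under 0.05, edgeR marked 2 of 10 between GFP+ and central cells (5.8% of all genes), 4 of 10 between GFP+ and peripheral GFP- cells (5.58% of all genes) and 0 of 10 between the GFP- groups (2.7% of all genes). At the same limit DESeq2 marked 2, 4 and 0 of the 10 against 10.0%, 7.83% and 5.18% of all genes, and limma voom 3, 4 and 1 against 13.8%, 9.59% and 8.66%. In fits blocked by mouse edgeR called 60 of 9389 genes between GFP+ and central cells and 0 genes in the other comparisons. None of these was among the 10. At an unadjusted p under 0.05 these fits marked 1 of the 10, Nqo1, against central cells, beside 546 of 9389 genes. Against peripheral GFP- cells they marked 4 of the 9 tested, Nqo1, Sod1, Sod2 and Prdx1, beside 640 of 9922 genes. Between the GFP- groups they marked 0 of 9, beside 321 of 9300 genes. In the main fits the median log2 fold change of the 10 genes was -0.20, 0.24 and -0.16 in the 3 comparisons, against 0.00, 0.01 and 0.01 over all genes tested. The first 2 comparisons share the GFP+ libraries, so that a gene's values in them are not independent.

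**Figure D2:**
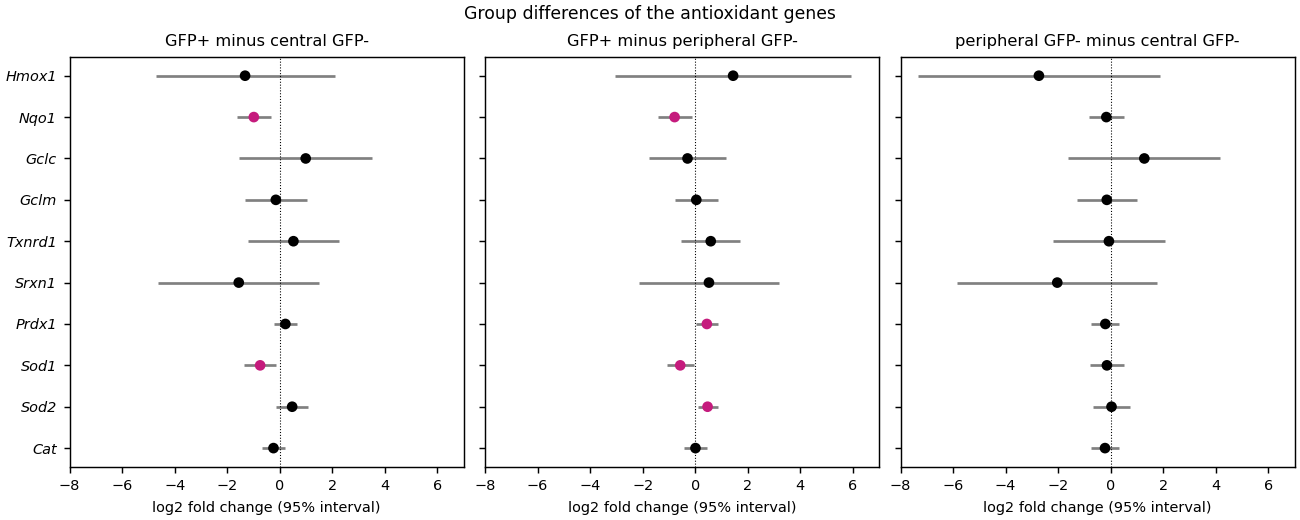
Log2 fold changes of the 10 antioxidant genes with 95% intervals from edgeR in the 3 comparisons, where points in magenta have an unadjusted p under 0.05. Nqo1 and Sod1 lie below 0 in both comparisons with GFP+ cells, Prdx1 and Sod2 lie above 0 against peripheral GFP- cells, and the intervals of Hmox1 and Srxn1 are the widest.

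The 4 genes with unadjusted p under 0.05 were Nqo1, Sod1, Sod2 and Prdx1. The 250 bases before their RefSeq starts are shown because these genes carried the differences described next and stand at opposite sides of 0. They were read from GRCm38.p6 on the strand of each gene, 5′ to 3′, at chr8:107403206-107403455 (minus strand) for Nqo1, chr16:90220512-90220761 (plus) for Sod1, chr17:13007589-13007838 (plus) for Sod2 and chr4:116685349-116685598 (plus) for Prdx1. Capitals mark a match, on either strand, to the core of the antioxidant response element, TGACNNNGC.
Nqo1: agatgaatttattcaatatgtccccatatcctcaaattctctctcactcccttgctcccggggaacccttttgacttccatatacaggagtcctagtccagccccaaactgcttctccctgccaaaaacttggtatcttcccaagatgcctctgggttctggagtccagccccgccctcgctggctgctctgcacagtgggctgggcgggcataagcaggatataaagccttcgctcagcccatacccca
Sod1: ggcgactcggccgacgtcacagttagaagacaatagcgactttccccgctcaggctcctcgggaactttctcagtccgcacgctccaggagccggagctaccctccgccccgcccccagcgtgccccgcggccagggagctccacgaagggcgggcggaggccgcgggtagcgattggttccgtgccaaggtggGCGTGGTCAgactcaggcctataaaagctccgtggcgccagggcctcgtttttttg
Sod2: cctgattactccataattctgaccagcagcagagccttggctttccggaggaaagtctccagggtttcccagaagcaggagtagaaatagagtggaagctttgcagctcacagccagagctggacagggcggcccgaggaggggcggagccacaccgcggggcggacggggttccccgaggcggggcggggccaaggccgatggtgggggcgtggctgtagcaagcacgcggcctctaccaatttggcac
Prdx1: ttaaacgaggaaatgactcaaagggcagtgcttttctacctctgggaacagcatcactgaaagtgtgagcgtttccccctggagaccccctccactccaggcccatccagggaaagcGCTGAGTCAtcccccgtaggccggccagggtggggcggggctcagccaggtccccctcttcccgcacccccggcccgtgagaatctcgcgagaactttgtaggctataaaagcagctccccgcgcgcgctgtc

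The core was searched from 250 bases before to 50 after the start, and 12.4% of 32851 RefSeq windows of this length held it. Windows were listed for 8 of the 10 genes, 10 windows in all with 3 for Txnrd1, and 5 windows held the core. The matches were GCTGAGTCA at -133 in Prdx1, GCGTGGTCA at -56 in Sod1, GCACCGTCA at -134 in Gclm, GCTTTGTCA at -92 in a window of Txnrd1 and GCTAGGTCA at 28 in Srxn1, all read on the strand of the gene as the reverse complement of the core. The Prdx1 match overlaps the AP1 motif TGANTCA, which 7.81% of all windows held on either strand and which the Srxn1 window held too. The windows of Nqo1 and Sod2 lacked the core, and those of Sod1 and Prdx1 held it. Bases outside the windows were not searched, and a relation between the core and the direction of a difference was not tested. A match is a run of letters and not a measured binding site.

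Nqo1, which reduces quinones with NADPH or NADH and is a standard NRF2 target, had its lowest mean in GFP+ cells. Its CPM ran from 55.5 through a median of 133 to 193 in GFP+ libraries, and from 153 through 257 to 340.1 in central libraries. In peripheral GFP- libraries of mice 1, 2, 4, 5 and 7 it was 256, 242, 229, 108 and 351. Every GFP+ library except that of mouse 4 and that of mouse 5 lay below all central libraries, so the ranges overlapped. GFP+ cells were below the central cells of the same mouse in 5 of 5 mice. Such counts of mice, here and below, are given without a test and without their share over all genes. Means were 135 ± 47.1 (SD, n = 6) in GFP+ cells, 237 ± 86.7 (n = 5) in peripheral GFP- and 252 ± 64.0 (n = 6) in central GFP- cells. Against central cells the edgeR log2 fold change was -0.99 ± 0.31 (SE), with a 95% interval from -1.64 to -0.34, an unadjusted p of 0.0052 and an adjusted p of 0.286, which spanned 0.144 to 0.748 over the alternatives. Against peripheral GFP- cells it was -0.79 ± 0.30 (SE), with an edgeR adjusted p of 0.746, and GFP+ cells were lower in 4 of 5 mice, mouse 5 being the exception. Without the 3 central libraries of fewest detected genes, those of mice 4, 5 and 7, the log2 fold change against central cells was -0.70.

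Sod1 was also lower on average in GFP+ cells. Its CPM ran from 103 through a median of 149 to 194 in GFP+ libraries and from 147 through 237 to 335 in central libraries. In peripheral GFP- libraries of mice 1, 2, 4, 5 and 7 it was 181, 242, 224, 318 and 156. The ranges overlapped in both comparisons. Within mice GFP+ cells were below the peripheral GFP- cells in 5 of 5 and below the central cells in 4 of 5, mouse 4 being the exception. The edgeR log2 fold change was -0.75 ± 0.29 (SE) against central cells, with an adjusted p of 0.561, and -0.57 ± 0.24 (SE) against peripheral GFP- cells, with an adjusted p of 0.808. Sod1 overlaps Scaf4 on the opposite strand in GENCODE M21, a gene with 0 to 906 counts here against 1473 to 4666 for Sod1, and reads of their overlap cannot be assigned because the use of strand is not given.

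Sod2 was the only gene of the 10 whose groups did not overlap in a comparison. Its CPM ran from 192 through a median of 224 to 259 in GFP+ libraries. In peripheral GFP- libraries of mice 1, 2, 4, 5 and 7 it was 153, 170.0, 169.9, 179 and 153. All 6 GFP+ libraries thus lay above all 5 peripheral GFP- libraries, a separation that 1.29% of genes tested showed in either direction. The means were 226 ± 31.4 (SD, n = 6) and 165 ± 11.3 (n = 5), a log2 fold change of 0.47 ± 0.18 (SE) or 1.38-fold by edgeR, with an unadjusted p of 0.0188 and an adjusted p of 0.733. DESeq2 gave an adjusted p of 0.0385 for the same gene, the lowest of the alternatives, which reached 1.00, at a change below the limit of a call. Central libraries were spread from 75.8 through a median of 146 to 271, and with 0.47 ± 0.29 (SE) the difference from them had an unadjusted p of 0.122 and an edgeR adjusted p of 1.00. GFP+ cells were higher than the central cells of their mouse in 4 of 5 mice, mouse 7 being the exception. The mitochondrial share of counts was lower in GFP+ libraries than in the peripheral GFP- libraries of the same mouse in 5 of 5 mice, and its part in the Sod2 difference was not tested.

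Prdx1 had its highest mean in GFP+ cells. Its CPM ran from 1247 through a median of 1372 to 1716 in GFP+ libraries and from 877 through 1022 to 1705 in central libraries. In peripheral GFP- libraries of mice 1, 2, 4, 5 and 7 it was 1108, 969, 1352, 652 and 1274. GFP+ cells exceeded the peripheral GFP- cells of their mouse in 5 of 5 mice, but by margins from 24.2 CPM in mouse 4 to 608 CPM in mouse 1, and the ranges overlapped. The edgeR log2 fold change was 0.44 ± 0.20 (SE) against peripheral GFP- cells, with an unadjusted p of 0.0392 and an adjusted p of 0.850, and 0.21 ± 0.20 (SE) against central cells, with an unadjusted p of 0.306. Its coefficient of variation was 12.1% among GFP+ libraries, 25.9% among peripheral GFP- and 30.0% among central libraries.

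**Figure D3:**
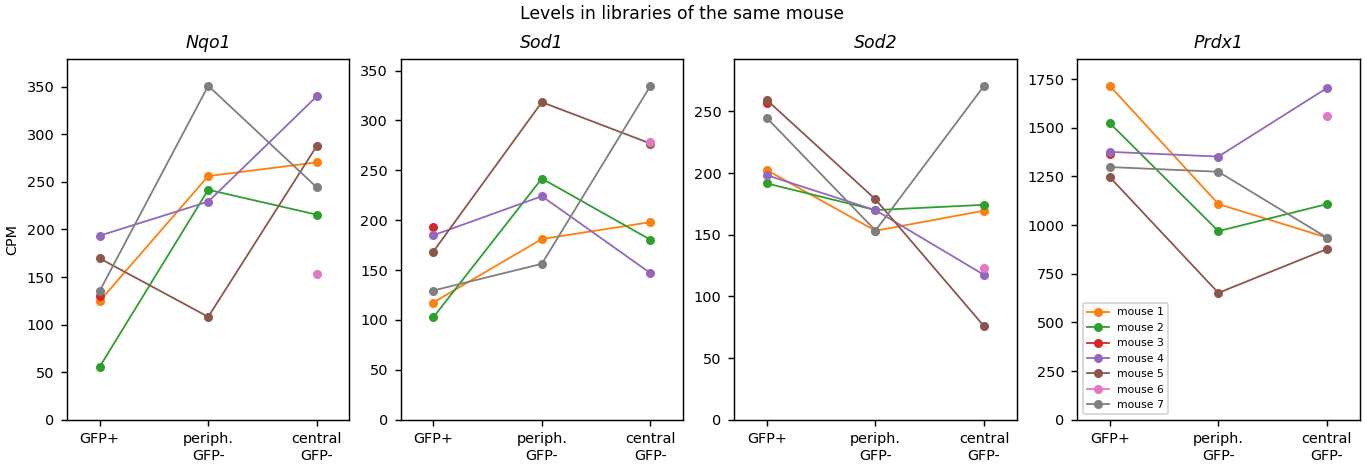
CPM of Nqo1, Sod1, Sod2 and Prdx1 by group, with a line for each mouse and single points for mouse 3 and mouse 6, which gave 1 group each. Lines go up from GFP+ to peripheral GFP- cells for Sod1 and down for Sod2 and Prdx1 in all 5 mice with both.

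The ratio of the mitochondrial to the cytosolic dismutase was read within each library, a measure chosen after the values had been seen and so given without a test. Counts of Sod2 per count of Sod1 were 1.07 to 1.89 in GFP+ libraries with a median of 1.63, 0.561 to 0.982 in peripheral GFP- and 0.274 to 0.966 in central libraries. The lowest GFP+ ratio, 1.07, lay above the highest peripheral GFP- and central ratios, 0.982 and 0.966. Sod2 and Sod1 already differed in opposite directions, which favours such a separation. How many other gene pairs separate the groups in this way was not counted. The library with the lowest ratio, central cells of mouse 5, also had the highest mitochondrial share at 47.3%, and the part of that share in the ratio was not tested.

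Cat, Gclm and Txnrd1 gave no unadjusted p under 0.05 in edgeR. Cat had means of 479 ± 99.4 (SD, n = 6) in GFP+, 486 ± 137 (n = 5) in peripheral GFP- and 540.2 ± 99.9 (n = 6) CPM in central cells, with log2 fold changes of -0.24 (95% interval -0.68 to 0.20) and 0.01 (-0.44 to 0.45) for GFP+ cells against central and peripheral GFP- cells. Its intervals were among the narrowest, and peripheral GFP- cells were below the central cells of their mouse in 5 of 5 mice, with a log2 fold change of -0.22 and an unadjusted p of 0.388 in edgeR. Gclm means were 90.4 ± 51.4, 89.7 ± 29.8 and 93.3 ± 51.9 CPM in the same order, although single libraries reached from 8.28 CPM in central cells of mouse 4 to 166 in central cells of mouse 7. Its 95% interval for GFP+ against central cells, -1.32 to 1.02, holds changes past the limit of a call in either direction. Txnrd1 was at 36.7 ± 21.3, 24.5 ± 15.96 and 25.3 ± 20.0 CPM, and central cells of mouse 5 held a single count of it.

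Hmox1, Gclc and Srxn1 were present in some pools and at 0 in others. Hmox1, which opens heme and releases iron, biliverdin and carbon monoxide, was at 0 counts in 7 of 17 libraries and at 2 counts in 1 more, while the other 9 libraries held 70 to 515 counts. GFP+ cells of mice 1 to 4 read 17.5, 11.5, 22.9 and 5.28 CPM and those of mice 5 and 7 were at 0. Among peripheral GFP- libraries mouse 1 read 17.4 CPM and the other 4 were at 0, where a count of 0 allows up to 3 counts. Central cells of mice 1, 2, 5 and 6 read 7.24, 16.7, 68.9 and 34.9 CPM, mouse 4 was at 0 and mouse 7 at 0.22. The edgeR log2 fold changes had 95% intervals from -4.73 to 2.09 for GFP+ against central, -3.04 to 5.92 for GFP+ against peripheral GFP- and -7.36 to 1.89 for peripheral against central GFP- cells, all of which include 0. Without peripheral GFP- cells of mouse 1, the other 4 being at 0, edgeR gave unadjusted p of 0.0054 and 0.0025 for the comparisons with peripheral GFP- cells and adjusted p of 0.525 and 1.00.

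Gclc was detected in all GFP+ libraries at 9.69 to 36.7 CPM, in all peripheral GFP- libraries at 13.7, 14.4, 18.7, 100.4 and 6.13 CPM for mice 1, 2, 4, 5 and 7, and in 4 of 6 central libraries at 13.7 to 24.7 CPM. Central cells of mice 5 and 7, 2 of the 3 libraries with the fewest detected genes, held 0 counts. GFP+ cells were above the central cells of their mouse in 5 of 5 mice, at an edgeR log2 fold change of 0.99 with a 95% interval from -1.54 to 3.52. The sign against peripheral GFP- cells rested on mouse 5, with -0.29 over all libraries and 0.98 without that library. Srxn1 read 1.81 to 13.01 CPM in GFP+ cells, 0 to 9.70 in peripheral GFP- and 0 to 71.0 in central cells, and its log2 fold change of -1.56 ± 1.46 (SE) against central cells became -0.11 without central cells of mouse 5 alone and 0.10 without the 3 central libraries of fewest genes, mouse 5 among them.

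Between peripheral and central GFP- cells, no gene of the 10 had an unadjusted p under 0.05 in edgeR or DESeq2 and 1 had in limma voom, Hmox1. No ranges were apart, a separation that 0.755% of genes tested showed, and between GFP+ and central cells 0 of 10 against 1.13%. Read by direction, 2 of 10 were lower in GFP+ than in central cells at an unadjusted p under 0.05 (3.66% of all genes). Against peripheral GFP- cells 2 were lower (2.83% of all genes) and 2 higher (2.75% of all genes). The animal numbers in the labels fall into 2 runs, and 0 of the 10 genes had an unadjusted p under 0.05 in edgeR for a difference between runs in GFP+ against central cells, with a lowest adjusted p of 1.00. Within both runs the GFP+ means of Nqo1, at 103 and 166 CPM, lay below the central means of 243 and 256, and those of Sod2, at 217 and 234, above the peripheral GFP- means of 162 and 167.

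A wider list of 98 genes of the pathway, the 10 included, was also chosen with earlier results of these data known and was described by role. Of these, 83 passed the filter between GFP+ and central cells, 86 between GFP+ and peripheral GFP- cells and 82 between the GFP- groups, and edgeR and limma voom called 0 in each. DESeq2 called 1, Prdx6, in GFP+ against peripheral GFP- cells and 0 in the others. At an unadjusted p under 0.05 edgeR marked 7, 8 and 1 genes of the list, or 8.43%, 9.30% and 1.22% of those tested, beside 5.8%, 5.58% and 2.7% of all genes. Median log2 fold changes of the list were 0.00, 0.14 and -0.07, and 42, 58 and 35 of its genes were higher in value, which is 50.6%, 67.4% and 42.7% beside 50.1%, 50.8% and 50.4% of all genes tested. Between GFP+ and central cells the median by role ran from -0.46 for heme and iron genes (6 tested) to 0.86 for glutathione synthesis and recycling (11 tested). Of the latter 7 were higher and 4 lower in value and 1 had an unadjusted p under 0.05. Some genes of this role were at or under 3 counts in part of the central libraries, Gclc in 2 of 6 and others in up to 4 of 6. Against peripheral GFP- cells the median by role ran from -0.41 for the regulators (8 tested, 3 higher in value) to 0.56 for glutathione peroxidases (4 tested, 3 higher), with 9 of 11 genes of glutathione synthesis and recycling and 10 of 12 of the thioredoxin system higher in value at medians of 0.32 and 0.34. These roles were not tested against other genes.

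**Figure D4:**
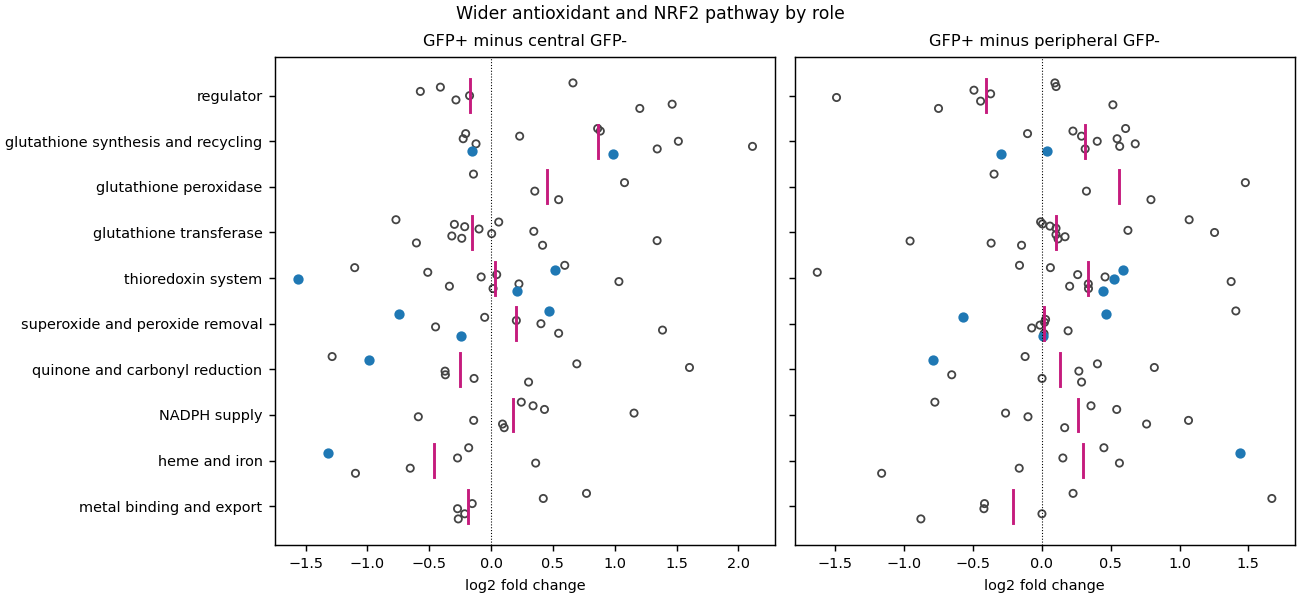
Log2 fold changes of the pathway genes tested, by role, for GFP+ against central GFP- cells and GFP+ against peripheral GFP- cells, with the 10 antioxidant genes as filled blue points, other genes as open circles and the median of each role as a magenta line. Against peripheral GFP- cells 58 of 86 points lie above 0, beside 50.8% of all genes tested, and role medians run from -0.41 to 0.56.

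Among the regulators, Nfe2l2 itself read 29.2 to 87.8 CPM in GFP+ libraries with a mean of 61.8 ± 23.4 (SD, n = 6). Means were 87.9 ± 30.2 (n = 5) in peripheral GFP- and 90.4 ± 80.7 (n = 6) in central cells, where mouse 5 held 1 count and mouse 7 reached 216 CPM. GFP+ cells were below the peripheral GFP- cells of their mouse in 5 of 5 mice, with a log2 fold change of -0.49 ± 0.34 (SE) and an unadjusted p of 0.164 in edgeR. Keap1, whose product retains NRF2, averaged 12.6 CPM in GFP+, 17.5 in peripheral GFP- and 4.56 in central cells, with 3 of 6 central libraries at or under 3 counts and an unadjusted p of 0.324 or 0.534 for GFP+ cells against central or peripheral GFP- cells. Bach1, the competing repressor, averaged 11.6 CPM in peripheral GFP- and 0.435 in central cells. It had a log2 fold change of 4.66 ± 1.65 (SE) between them with an unadjusted p of 0.0119 in edgeR and an adjusted p of 0.0228 in DESeq2 and of 1.00 in edgeR, but unadjusted p of 0.105 in the fit blocked by mouse and 0.0653 without the 3 central libraries of fewest genes. Central libraries reached 1.48 CPM of Bach1 at most, and 3 of 6 lay at or under 3 counts. Bach1 thus passed the filter mainly through the peripheral GFP- libraries, so this test is no independent support for the difference. Peripheral GFP- cells were higher in 4 of 5 mice, mouse 2 being the exception. In GFP+ cells Bach1 ranged from 0 to 17.6 CPM.

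Of the small MAF genes, whose products pair with NRF2, Mafg was the most often detected. It averaged 10.9 ± 8.51 CPM in GFP+, 30.4 ± 20.3 in peripheral GFP- and 12.3 ± 12.1 in central cells, and GFP+ cells were below the peripheral GFP- cells of their mouse in 5 of 5 mice, with a log2 fold change of -1.49 ± 0.78 (SE) and an unadjusted p of 0.0736 in edgeR. Maff passed 3 counts only in GFP+ cells of mice 5 and 7, at 6.27 and 6.34 CPM. Mafk passed 3 counts in 1 GFP+, 3 peripheral GFP- and 1 central library and reached 2.95 CPM at most.

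Prdx6, a peroxiredoxin that reduces phospholipid hydroperoxides with glutathione, had the lowest p of the list. GFP+ libraries of mice 1, 2, 3, 4, 5 and 7 read 966, 1141, 733, 549.7, 384 and 613 CPM. Peripheral GFP- libraries of mice 1, 2, 4, 5 and 7 read 242, 308, 409.5, 191 and 299 CPM. The groups overlapped through GFP+ cells of mouse 5 and peripheral GFP- cells of mouse 4, while GFP+ cells were higher in 5 of 5 mice. The edgeR log2 fold change was 1.37 ± 0.28 (SE), with an unadjusted p of 0.00016 and an adjusted p of 0.161, and DESeq2 gave an adjusted p of 0.00135, within a range of 0.00135 to 0.902 over the alternatives. Against central cells it was 1.03 ± 0.38 (SE) with an edgeR adjusted p of 0.492, and GFP+ cells were higher in 4 of 5 mice. Prdx6b, an annotated near copy, held 0 to 16 counts.

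Other genes of the list with an unadjusted p under 0.05 were marked in 1 or both comparisons with GFP+ cells. Slc3a2, the heavy chain of the cystine importer, averaged 420.4 CPM in GFP+, 283 in peripheral GFP- and 222 in central cells, with log2 fold changes of 0.86 ± 0.34 (SE) against central and 0.61 ± 0.28 (SE) against peripheral GFP- cells and edgeR adjusted p of 0.578 and 0.871. Slc7a11, its partner in that importer, did not pass the count filter and averaged only 0.22, 0.18 and 0.34 CPM in the same order. It lay at or under 3 counts in 2 of 6, 4 of 5 and 4 of 6 libraries, so the Slc3a2 values do not speak for the whole importer. Gpx1, a glutathione peroxidase, averaged 171, 100.96 and 111 CPM in this order, with 0.79 ± 0.33 (SE) against peripheral GFP- cells and an edgeR adjusted p of 0.801. Sqstm1, the autophagy receptor p62 that binds KEAP1, averaged 298, 285 and 181 CPM, with 0.66 ± 0.25 (SE) against central cells and an edgeR adjusted p of 0.557. Slc48a1, a heme transporter, averaged 205, 179 and 117 CPM, with 0.77 ± 0.31 (SE) against central cells and an edgeR adjusted p of 0.600.

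The genes with negative values at this limit were Me1 and Abcc1. Me1, the cytosolic malic enzyme that supplies NADPH, averaged 236 CPM in GFP+, 258 in peripheral GFP- and 337 in central cells, with -0.59 ± 0.25 (SE) against central cells and an edgeR adjusted p of 0.712. Abcc1, an exporter of glutathione conjugates, averaged 63.3, 118 and 73.0 CPM, with -0.88 ± 0.40 (SE) against peripheral GFP- cells and an edgeR adjusted p of 0.887. Together with Nqo1 and Sod1 these were all the pathway genes that lay lower in GFP+ cells at an unadjusted p under 0.05 in edgeR.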

How the data were processed

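The authors deposited whole-number counts per gene symbol for 17 SMART-Seq libraries, without normalization. The submitters' processing notes name fastp, Salmon and GRCm38.p6 without roles, and the annotation and the use of strand are not given in the sources used here. Each column name matched 1 sample title, with 0 columns unused. Group and mouse came from the labels.

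Counts were tested in R (version 4.3.3) with edgeR (version 4.0.16), using filterByExpr, TMM, the quasi-likelihood test and Benjamini-Hochberg adjustment over all genes tested, in fits of the 2 groups compared. DESeq2 (version 1.42.0), which the study's methods name, limma voom (version 3.58.1), other scalings and filters, a replicate block and libraries left out were alternatives. The scripts were tested on simulated data for GFP+ against central cells, with known changes larger than those of Nqo1, Sod1, Sod2 and Prdx1. How well changes of the size seen for these genes are found was not simulated. CPM used TMM over 17 libraries, so means and fitted folds can differ slightly. Transcript lengths are medians of protein-coding transcripts in GENCODE M21. Figures used matplotlib (version 3.10.9) in Python (version 3.11.15). Floors of 3 counts cover counting error only, as PCR copies were counted without molecular identifiers. Total counts per library, 9896118 to 22467079, set this precision.

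The genes and lists were chosen with earlier results of these data known. All 10 genes are named. Of the pathway list the text names the NRF2 regulators and, for each comparison, up to 10 genes by call, by ranges that do not overlap and by unadjusted p under 0.05. Slc7a11 is named beside Slc3a2 outside this rule. Replicates are pools of separate mice, and groups share mice, so libraries of a mouse are paired by design. Deviations from group means of same-mouse libraries correlated at -0.02 to 0.09 over 15 pairs, with 0 above 0.1. The main tests do not use the pairing.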

Additional observations from a re-analysis of the deposited data

Results flagged for a closer look

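In 4 of 30 sets of a gene and a group, 1 library stood far from the others by Dixon's criterion. For normally distributed values chance meets it in about 1 in 20 sets, or 1.5 of 30. The criterion was applied to CPM without a log scale, and the flagged genes were the 4 of lowest level, with uneven values. The 4 sets therefore cannot be read as an excess over 1.5. Hmox1 was at 17.4 CPM in peripheral GFP- cells of mouse 1 and at 0 in the other 4 libraries of the group. Gclc was at 100.4 CPM in peripheral GFP- cells of mouse 5 and at 6.13 to 18.7 in the others. Txnrd1 was at 78.4 CPM in GFP+ cells of mouse 5 and at 20.9 to 37.1 in the others. Srxn1 was at 71.0 CPM in central GFP- cells of mouse 5 and at 0 to 18.4 in the others. Of the 4 libraries, 3 came from mouse 5, and the cause was not tested.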

How the results depend on the processing

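No gene of the 10 was called under any alternative in any comparison, and of 288 values under other settings 270 kept direction and side of the threshold, as did 310 of 332 with 1 library left out. The number of the 10 genes at an unadjusted p under 0.05 between GFP+ and central cells, 2 in the report, was 1 without the count filter and 1 with the replicate block. It was 0 without the 3 central libraries of fewest genes, a setting chosen after seeing the data, as was leaving out the 13 mitochondrial genes. Leaving out those genes kept the numbers at 2, 4 and 0 in the 3 comparisons. With 1 library left out the number between GFP+ and central cells was 1 to 3, namely 1 without GFP+ cells of mouse 1 or 2 and 3 without central cells of mouse 7. Against peripheral GFP- cells, 4 in the report became 1 with all 3 groups in 1 fit and 2 to 4 with 1 library left out, namely 2 without GFP+ cells of mouse 1 or 2 or peripheral GFP- cells of mouse 2 or 5. Between the GFP- groups, 0 became 1 in limma voom and 0 to 1 with 1 library left out, namely 1 without peripheral cells of mouse 1, when the other 4 held 0 counts of Hmox1. DESeq2 called 1 pathway gene, Prdx6, in GFP+ against peripheral GFP- cells, where edgeR called 0. The replicate block by mouse changed no call among the 10 genes or the pathway list, and Nqo1 against central cells was then at -1.19 on the log2 scale with an edgeR adjusted p of 0.231.

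Directions turned only where the change had no unadjusted p under 0.05. Between GFP+ and central cells limma voom gave log2 fold changes of 0.020 for Gclm and 1.36 for Srxn1, and Srxn1 was at 0.10 without the 3 central libraries. Against peripheral GFP- cells limma voom gave 0.28 for Gclc and -0.27 for Gclm, the replicate block gave 0.66 for Gclc, a term for the run of animal numbers gave -0.018 for Gclm, and Cat was at -0.0052 with median-of-ratios size factors, -0.012 with TMMwsp and -0.0099 with all groups in 1 fit. Between the GFP- groups limma voom gave 0.32 for Gclm and 0.47 for Txnrd1, the replicate block gave 0.069 and 0.34, the absence of a filter gave 0.018 for Txnrd1, and without the 3 central libraries Txnrd1 was at 0.13, Nqo1 at 0.089 and Sod1 at 0.0043. In limma voom the median of all genes moved to 0.56 and 0.50 in the comparisons with central cells, and with the replicate block to 0.58 and 0.48. With 1 library left out, values turned for Gclm (-0.42 to 0.079) between GFP+ and central cells, for Cat (-0.093 to 0.13), Gclc (-0.56 to 0.98) and Gclm (-0.23 to 0.25) against peripheral GFP- cells, and for Gclm (-0.40 to 0.077), Nqo1 (-0.36 to 0.017), Sod2 (-0.069 to 0.27) and Txnrd1 (-0.53 to 0.35) between the GFP- groups. Hmox1 fell under the filter in the block fits with peripheral GFP- cells and was kept in 7 of 11 fits with 1 library left out in both comparisons with them. The causes were not tested. A group holds 5 or 6 pools, which bounds the precision of each value.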
